A study of Mus musculus with 17 samples.

Results

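The genes described here are 9 peptide hormone genes of the gut, Gip, Cck, Sct, Gcg, Pyy, Nts, Sst, Ghrl and Tac1, taken by name from the 53278 gene symbols of an RNA-seq table of sorted small-intestinal epithelium. They were chosen as a family, from general knowledge of enteroendocrine cells but with earlier results of these data known. All 9 were tested, with at least 1 TPM (transcript abundance relative to gene length and to the library's total) in at least 2 libraries. The mice were C57BL/6-strain Igha -/+ animals, bred from a C57BL/6 and an IgA-deficient parent, so that every pup carried 1 working copy of the IgA heavy-chain gene. They differed in the dam that nursed them, which was either a C57BL/6 mouse (called the B6 dam) or an Igha -/- mouse (the IgA-null dam), and thus in whether milk could supply maternal IgA. Epithelium was collected at day of life 14, 24 or 42, with 3 libraries in each of the 6 groups of dam and age apart from day 24 with the B6 dam, where there were 2. Cells were sorted as positive for EpCAM, an epithelial surface protein, and negative for CD45 and Ter119, which mark leukocytes and red cells. Litter, the individual dam and the length of intestine taken are not given in the labels. P-values therefore measure the spread between these libraries only.

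Enteroendocrine cells are rare secretory cells scattered through the gut lining that sense nutrients at their apical side and release peptide hormones from granules at their base. Different subtypes favour different hormones, and a hormone gene's transcripts lie almost wholly in the few cells that make it. In a bulk library, fewer hormone cells and less hormone RNA per cell therefore cannot be told apart. In rodents the gut matures around weaning, when milk gives way to solid food, and several hormone genes have a segmental pattern: Gip, Cck and Sct are classically proximal, and Gcg, Pyy and Nts are more abundant distally.

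The genes lie on 7 chromosomes of the GRCm38 (mm10) mouse genome, and each value is for the whole gene. By the GENCODE M21 annotation Gip lies on chromosome 11 from 96024545 to 96030831 on the plus strand, Cck on chromosome 9 from 121489824 to 121495694 (minus), and Sct on chromosome 7 from 141278330 to 141279133 (minus). Gcg lies on chromosome 2 from 62474530 to 62483650 (minus), Pyy on chromosome 11 from 102106676 to 102107832 (minus), and Nts on chromosome 10 from 102481756 to 102490486 (minus). Sst lies on chromosome 16 from 23889573 to 23890958 (minus), Ghrl on chromosome 6 from 113716119 to 113719880 (minus) and Tac1 on chromosome 6 from 7554879 to 7565834 (plus). Gip and Pyy share chromosome 11, and Ghrl and Tac1 share chromosome 6, in each case far apart.

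Promoter sequences were matched for 9 of 9 genes in RefSeq (GRCm38.p6), as windows of 300 bases that run from 250 bases before to 50 bases after each start, 13 windows in all because Ghrl and Pyy have several starts. The E-box CANNTG, searched on both strands (the motif reads the same on each), is the class of site bound by basic helix-loop-helix factors such as NEUROD1. It occurred in 9 of 9 genes, but also in 72.3% of all 32851 RefSeq windows of that length. The 150 bases before the start (RefSeq's or GENCODE's, whichever lies farther upstream) are printed for the 5 genes whose levels fall into distinct patterns below, Gip, Cck and Gcg in one and Pyy and Nts in the other, with E-boxes in capitals.
Gip, chr11:96024395-96024544, plus strand: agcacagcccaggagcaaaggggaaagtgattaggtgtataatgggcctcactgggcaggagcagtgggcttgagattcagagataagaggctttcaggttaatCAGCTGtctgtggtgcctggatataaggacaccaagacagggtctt
Cck, chr9:121495695-121495844, minus strand: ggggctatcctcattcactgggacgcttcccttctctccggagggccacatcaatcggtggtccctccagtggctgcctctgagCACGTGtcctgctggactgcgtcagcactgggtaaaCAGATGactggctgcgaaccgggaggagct
Gcg, chr2:62483654-62483803, minus strand: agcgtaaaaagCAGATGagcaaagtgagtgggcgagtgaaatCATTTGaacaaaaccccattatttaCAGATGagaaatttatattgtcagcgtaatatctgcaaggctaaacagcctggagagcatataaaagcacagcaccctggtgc
Pyy, chr11:102107833-102107982, minus strand: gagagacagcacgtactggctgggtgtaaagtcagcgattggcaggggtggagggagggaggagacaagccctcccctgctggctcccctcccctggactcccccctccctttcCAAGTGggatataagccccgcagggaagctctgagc
Nts, chr10:102490487-102490636, minus strand: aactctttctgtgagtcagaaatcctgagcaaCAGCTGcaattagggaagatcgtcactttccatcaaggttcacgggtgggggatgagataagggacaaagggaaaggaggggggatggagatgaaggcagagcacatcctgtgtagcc
Both patterns of genes thus carry E-boxes, between 1 and 3 of them in these stretches. The palindromic cyclic-AMP response element TGACGTCA was found in 1.79% of all windows and, of the 9 genes, only in Sst, the gene in which this element is best known. It is shown in capitals in the 30 bases around it.
Sst, chr16:23890874-23890903, minus strand: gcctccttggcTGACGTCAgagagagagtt
Its shorter form TGACG, which overlaps it and was searched on both strands, occurred in 4 of the genes (Cck, Nts, Sst and Tac1) and in 20.8% of all windows. TATAAA, again on both strands, occurred in Gcg and Sct and in 13.6% of all windows. These are matches of letters, not measured binding.

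Depth, read back from the TPM steps and summed over genes whose values came out as whole reads, ran from 8477225 to 18305345 reads per library. Genes without a whole value are left out, so these are not full totals. TPM has a fixed sum, and a single gene model, Gm23935, took 40.2% to 61.9% of it, with mitochondrial genes next, so that what was left for all other genes ran from 10.3% in an IgA-null-dam library at day 24 to 30.9% in one at day 14. The median of all 15066 tested genes moved accordingly, by 0.33 on the log2 scale between dams at day 14 and by -0.38 at day 24, and by -1.02 from day 14 to 24 and 0.53 from day 24 to 42 with the IgA-null dam. Each result is therefore given on the deposited TPM and again divided by each library's own size factor (the median over genes of its ratio to the typical library), a setting called scaled, which brings these medians to between -0.04 and 0.03. The small nuclear RNA Rn7sk set 1 group apart, at 27256 to 33659 TPM with the IgA-null dam at day 14 against 3142 to 7479 TPM elsewhere, and its part in the results was not tested. Epcam, the gate's own gene, stood at 153 to 500.03 TPM, and Ptprc, which encodes CD45, at no more than 0.81 TPM. Markers of cells that also make some of these peptides were low: 14 genes of enteric neurons and glia summed to at most 6.88 TPM, 12 pancreatic genes to at most 2.20 TPM and 10 stomach genes to at most 1.88 TPM in any library. The sample descriptions hold what look like dates, called dates here, but what they date (harvest, sorting or library) is not stated. They were the same for both dams at day 42 and for the IgA-null dam at day 24, and different for the other 3 groups. Date and group thus cannot be told apart in the comparisons of dams at days 14 and 24, in any step that starts at day 14, or from day 24 to 42 with the B6 dam. Descriptions also begin with F for every library of the IgA-null dam and with M for every library of the B6 dam. The meaning of these letters is not given, and they cannot be told apart from dam at any age.

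At day 14 every one of the 9 hormone genes was higher in pups of the IgA-null dam. Their summed level was 124, 230.1 and 150.5 TPM under the B6 dam and 1106, 749 and 1197 TPM under the IgA-null dam. The ratio of group means ran from 4.16 for Sst to 7.96 for Gip, with a median of 5.53. For 9 of 9 genes the lowest library of the IgA-null dam exceeded the highest of the B6 dam, which held for 45.1% of all genes tested. By limma on log2(TPM + 1), 9 of 9 passed an adjusted p of 0.05 as higher, against 8.32% of all genes.

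**Figure D1:**
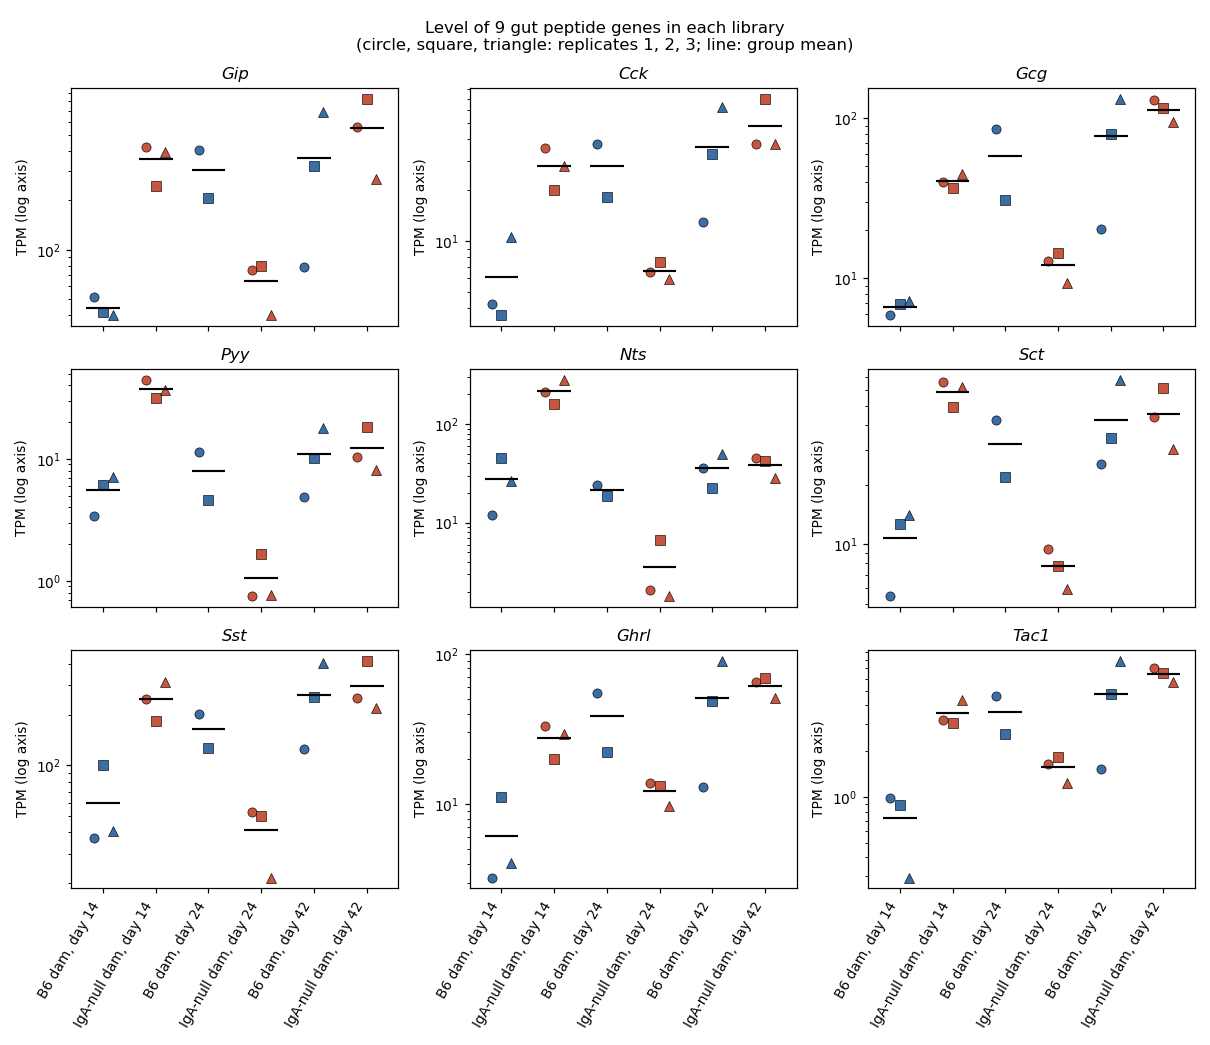
TPM of each of the 9 genes (log axis) in every library, by dam (blue, B6; red, IgA-null) and day, with the group mean as a line. At day 14 the 3 red points lie above the 3 blue points in all 9 panels, and at day 24 the blue points lie above the red ones.

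Among the hormones of the upper intestine, Gip, whose product is the incretin of K cells that raises insulin after a meal, stood at 51.4, 41.9 and 40.2 TPM in pups of B6 dams and at 424, 244 and 395 TPM in those of IgA-null dams. The 2 sets are far apart, and the log2 fold change was 2.93 ± 0.59 (SE; limma adjusted p = 0.0095), or 2.49 scaled. Cck encodes cholecystokinin, which empties the gall bladder and curbs appetite, and stood at 4.21, 3.62 and 10.5 TPM against 35.4, 19.98 and 28.0 TPM. Here replicate 3 of the B6 dam was well above the other 2 but still below every IgA-null-dam library (log2 fold change 2.11 ± 0.47, limma adjusted p = 0.015). Sct, the gene of secretin, which drives bicarbonate secretion from the pancreas, gave 5.43, 12.7 and 14.0 TPM against 66.1, 49.2 and 62.4 TPM. Its libraries were tight with the IgA-null dam, and the log2 fold change was 2.45 ± 0.39 (limma adjusted p = 0.0028).

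Of the hormones more common distally, Nts had the largest log2 fold change of the 9. It encodes neurotensin, which promotes fat absorption and slows transit, and gave 11.9, 45.7 and 26.4 TPM in pups of B6 dams, against 212, 159.9 and 282 TPM in the others. Although the B6-dam libraries differed among themselves, none approached the other group (log2 fold change 3.07 ± 0.45, limma adjusted p = 0.0018). Pyy, the gene of peptide YY, an L-cell hormone that slows the upper gut, was at 3.37, 6.07 and 7.10 TPM against 44.7, 31.5 and 36.7 TPM (2.60 ± 0.40, limma adjusted p = 0.0025). Gcg, whose precursor gives GLP-1 and GLP-2 in the gut, was the steadiest within groups, at 5.88, 6.92 and 7.21 TPM against 39.9, 36.8 and 44.9 TPM. Its log2 fold change was 2.44 ± 0.48 (limma adjusted p = 0.0089).

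The remaining 3 genes rose as well, Tac1 by least on the log2(TPM + 1) scale, which understates low genes. Somatostatin, the product of Sst, is the D-cell peptide that restrains the other endocrine cells, and its transcript stood at 37.3, 101 and 40.7 TPM against 247, 184 and 314 TPM (2.16 ± 0.47, limma adjusted p = 0.014). Ghrl encodes ghrelin, the hunger hormone made mainly in stomach and in lower amounts in duodenum. It was at 3.25, 11.1 and 4.03 TPM against 33.2, 19.95 and 29.4 TPM (2.13 ± 0.54, limma adjusted p = 0.026). In both genes replicate 2 of the B6 dam was the high one of its group. Tac1 encodes substance P and neurokinin A, found in serotonin cells and in enteric neurons, and was at 0.99, 0.89 and 0.30 TPM against 3.20, 3.07 and 4.37 TPM (1.41 ± 0.33, limma adjusted p = 0.018). Those B6-dam values rest on 49, 34 and 15 recovered reads, so that counting error at this age is largest for this gene.

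After scaling, 8 of 9 genes still passed as higher, against 1.89% of all genes, and Ghrl did not (1.68, limma adjusted p = 0.056). The scaled log2 fold changes ran from 1.00 for Tac1 to 2.62 for Nts. With limma-voom on the recovered reads 6 of 9 passed, against 1.93% of all genes, and Cck, Ghrl and Tac1 had adjusted p-values of 0.055, 0.077 and 0.057. Leaving out replicate 3 of the IgA-null dam at day 14 brought the count on deposited values to 5, with 2.54% of all genes called higher. Scaled, the count fell to 2 without replicate 1 of the B6 dam or replicate 3 of the IgA-null dam, to 3 without replicate 1 or replicate 2 of the IgA-null dam, and to 5 without replicate 2 of the B6 dam. The share of all genes called higher was 0.412%, 0.67%, 0.531%, 0.564% and 0.451% in that order.

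Other genes of the endocrine cell were read from lists written from general knowledge, also with earlier results of these data known. Of 14 granule and prohormone-processing genes, 12 were tested and 9 were higher at day 14 (6 scaled), with a median log2 fold change of 1.51, or 1.09 scaled. Chga and Chgb, the chromogranins that pack the granule core, rose from means of 24.42 ± 3.89 and 67.1 ± 8.002 TPM to 222 ± 38.6 and 462 ± 73.5 TPM (SD, n = 3 each). Chga changed by 3.13 ± 0.44 and Chgb by 2.76 ± 0.45 on the log2 scale (limma adjusted p = 0.0014 and 0.0033). Pcsk1, the convertase that cuts prohormones, and its inhibitor Pcsk1n rose by 1.56 ± 0.28 and 1.81 ± 0.21 (limma adjusted p = 0.0057 and 0.00077). The other granule genes that rose were the granins Scg2 (2.07 ± 0.42), Scg3 (1.18 ± 0.29) and Scg5 (1.51 ± 0.30), the exopeptidase Cpe (1.51 ± 0.42) and Resp18 (1.22 ± 0.32), of which Scg2 and Scg5 passed scaled.

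Regulators were less uniform. Of 17 tested transcription factors of the endocrine lineage 2 passed, as deposited and scaled: Neurod1, which drives endocrine differentiation (2.37 ± 0.47, limma adjusted p = 0.0091), and Lmx1a, a factor of serotonin cells (1.497 ± 0.24, limma adjusted p = 0.0031). Myt1 and Rfx6 were at 0.96 and 1.18 with limma adjusted p-values of 0.052 and 0.061. Of 7 serotonin genes 2 passed. They were Tph1, the rate-limiting enzyme of gut serotonin synthesis, at 2.06 ± 0.29 (limma adjusted p = 0.0015), and Ddc at 0.85 ± 0.21 (limma adjusted p = 0.023). Only Tph1 passed scaled.

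Few other peptide genes were expressed: 4 of 16 passed the filter, and 3 of those rose. These were Cartpt (1.26, limma adjusted p = 0.0062), Nucb2 (0.92, limma adjusted p = 0.046) and Iapp (1.18, limma adjusted p = 0.048), all with means under 6 TPM. Ucn3, the fourth, was at 0.69 (limma adjusted p = 0.054), and scaled only Cartpt passed. Of 10 tested nutrient and bile acid sensors 3 rose, namely Trpa1 (1.59, limma adjusted p = 0.0033), an irritant channel of serotonin cells, Ffar2 (1.12, limma adjusted p = 0.012), a receptor for short-chain fatty acids, and Ffar4 (1.00, limma adjusted p = 0.026), a receptor for long-chain fatty acids. Cacna1a was at 1.18 (limma adjusted p = 0.058). Trpa1 and Ffar2 passed scaled.

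Receptors for the hormones themselves were mostly below the filter in this epithelium, with 3 of 22 tested. Sstr1, a somatostatin receptor, rose by 1.47 ± 0.20 (limma adjusted p = 0.0013), from 0.20, 0.17 and 0.20 TPM to 2.38, 1.84 and 2.74 TPM. Sort1, which binds neurotensin, and Dpp4, the peptidase that inactivates GLP-1 and GIP, were at 0.30 ± 0.23 and 0.10 ± 0.44 (limma adjusted p = 0.36 and 0.88).

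Among markers of other secretory cells, goblet cell markers moved with the hormones at day 14, and tuft and Paneth cell markers did in part. All 8 goblet cell markers were higher (7 scaled), their sum running from 515 to 783 TPM with the B6 dam and from 2081 to 3818 TPM with the IgA-null dam. Of 7 tested tuft cell markers 4 were higher (2 scaled), Avil, Sh2d6 and Trpm5 among those as deposited. Tuft marker sums were 3.58 to 5.52 against 18.3 to 28.96 TPM. Of 8 Paneth cell markers, Mmp7 and Mptx2 were higher as deposited, and 1 of the 8 was higher scaled. None of 10 enterocyte markers and none of 8 stem and cycling markers passed, the enterocyte sum running from 3657 to 10905 against 4003 to 8786 TPM. Since hormone genes differ along the gut, markers of segment were read too: of 9 tested proximal markers 0 passed at day 14. Of 10 distal markers Fabp6, the ileal bile acid binding protein, was higher as deposited (2.31 ± 0.69, limma adjusted p = 0.049; scaled adjusted p = 0.25), and Fgf15, an ileal hormone made by enterocytes, was lower scaled (-1.23, limma adjusted p = 0.041; -0.95 as deposited, adjusted p = 0.065). The sums overlapped between dams (793 to 1949 against 1383 to 3030 TPM for the 10 proximal genes, 278 to 563 against 373 to 582 TPM for the distal ones). Of leukocyte genes, 4 of 13 were tested: Kit was higher and Csf1r and Trac lower (scaled, 0 higher and 1 lower). The 13 summed to at most 13.9 TPM in any library of the series. The 10 stromal and vascular genes, 0 of them tested, summed to at most 1.67 TPM. Snap25, a vesicle fusion gene that endocrine cells also use, was the 1 of 4 tested neuronal genes that was higher (0.76 ± 0.17, limma adjusted p = 0.017). The part of these other cell types, and of segment, in the hormone difference was not tested.

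At day 24 the order of the dams was the opposite for all 9 genes, although 0 passed the test. Summed, the 9 genes gave 869 and 453 TPM with the B6 dam and 175, 182 and 96.3 TPM with the IgA-null dam. The B6-dam mean was 2.30 (Tac1) to 7.54 (Pyy) times higher, and for 9 of 9 genes the libraries did not overlap, against 33.5% of all genes tested. Limma gave log2 fold changes of -0.81 to -2.46 with unadjusted p under 0.05 for 9 of 9 genes, but the adjusted p ran from 0.059 to 0.15, so that 0 passed. Of all 15066 genes tested, 4659 had an unadjusted p under 0.05 in either direction. The share of all genes called lower was 0.0265%. After scaling 7 of 9, and with limma-voom also 7 of 9, had an unadjusted p under 0.05, and 0 passed in either (0.0% of all genes). The number of all genes at that unadjusted p is not given here for these settings.

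**Figure D2:**
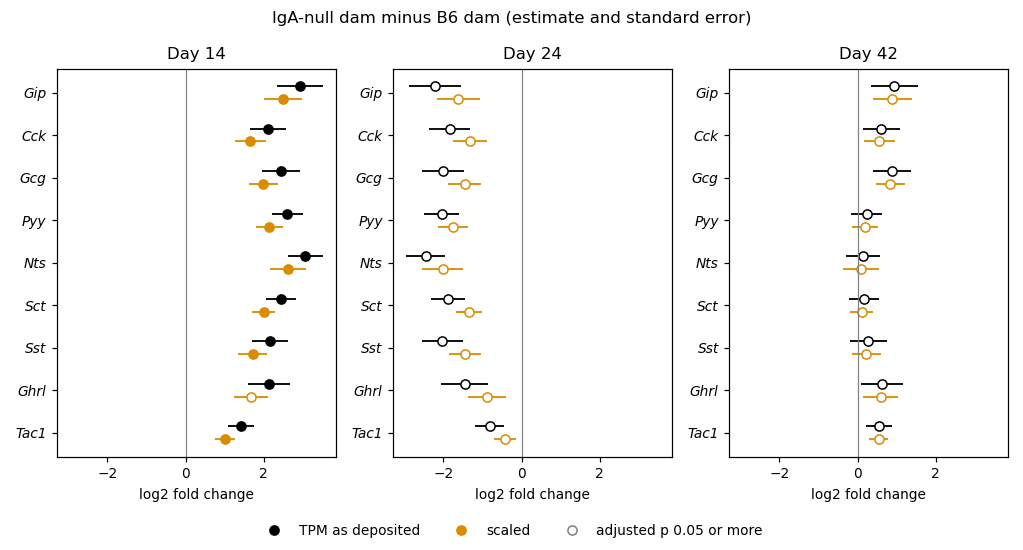
Log2 fold change (IgA-null dam minus B6 dam) with its standard error for each gene at days 14, 24 and 42, on deposited TPM (black) and scaled (orange), with filled points for an adjusted p under 0.05. Points lie to the right of 0 at day 14, to the left at day 24 and near or just right of 0 at day 42.

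Pyy and Nts came nearest the threshold at day 24, each with an adjusted p of 0.059 by limma. Pyy gave 11.3 and 4.62 TPM under the B6 dam against 0.74, 1.66 and 0.77 TPM under the IgA-null dam, the latter resting on 7, 17 and 10 recovered reads. Nts was at 23.9 and 18.8 against 2.09, 6.67 and 1.79 TPM, and Sct at 42.6 and 21.8 against 9.45, 7.75 and 5.94 TPM. In each gene both B6-dam libraries were above all 3 others, and replicate 1 was the higher of the pair.

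For Gip the values were 405 and 207 TPM with the B6 dam against 74.9, 79.3 and 39.9 TPM. Cck gave 37.6 and 18.3 against 6.52, 7.47 and 5.94 TPM, and Gcg gave 85.6 and 31.0 against 12.8, 14.5 and 9.31 TPM. Replicate 1 of the B6 dam was about 2 to 3 times replicate 2 in each. Sst was at 204 and 126 against 53.0, 49.96 and 21.6 TPM. Ghrl was at 54.8 and 22.1 against 13.7, 13.3 and 9.75 TPM, and Tac1 at 4.65 and 2.59 against 1.66, 1.83 and 1.23 TPM. These last 2 genes had the smallest differences.

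The call at day 24 depended on single libraries; with 1 B6-dam library left, that library is assumed to vary like the other groups. The count of genes passing was 8 without replicate 2 of the B6 dam at day 24, 6 without replicate 1 of the IgA-null dam at day 24, 7 without replicate 1 of the B6 dam at day 42 and 2 without replicate 2 of the IgA-null dam at day 14, the last pair entering only through the shared fit. The share of all genes called lower moved as well, to 32.1%, 14.5%, 4.01% and 1.18% in that order. Scaled, with at least 2 libraries left in each group, the count of hormone genes was 0 throughout. The share of all genes called lower was then at most 0.00664%. None of the granule genes passed at day 24 either, and their median was -0.93 (-0.64 scaled). Cpe and Scg2 had the smallest p among them (-1.83 and -1.71, limma adjusted p = 0.063 and 0.067). The summed granule genes ran from 209 to 430 TPM against 91.8 to 189 TPM, and tuft cell markers from 16.1 to 24.7 against 8.25 to 13.7 TPM, while goblet sums overlapped (1203 to 1438 against 748 to 1772 TPM), as did those of the proximal and distal markers (336 to 1721 against 599.9 to 1647 TPM and 407 to 739 against 229 to 476 TPM). Their part in the difference was not tested.

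At day 42 the dams were not told apart. Summed levels were 318, 815 and 1520 TPM with the B6 dam and 1146, 1632 and 745 TPM with the IgA-null dam. Log2 fold changes were between 0.14 (Nts) and 0.94 (Gip), the adjusted p was 1 for each gene by limma, 0 of 9 had an unadjusted p under 0.05, and 0.0% of all genes were called. Scaled, 1 gene had an unadjusted p under 0.05, and with limma-voom 2 did, with 0 past the adjusted threshold. Both groups carry the same date here, although the first letter of the description still differs with the dam.

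The wider spread at this age was that of the B6 dam, whose replicate 1 was the lowest of the 6 libraries for 8 of 9 genes. Gip was at 78.2, 325 and 686 TPM against 555, 829 and 270.1 TPM. Gcg was at 20.4, 80.2 and 133 against 129, 116 and 95.1 TPM, and Cck at 12.9, 33.0 and 62.4 against 37.7, 70.0 and 37.4 TPM. The groups overlapped in each. Ghrl was at 13.0, 48.8 and 90.1 against 64.7, 69.1 and 50.8 TPM, Tac1 at 1.53, 4.77 and 7.87 against 7.10, 6.58 and 5.70 TPM, and Sst at 126, 257 and 406 against 252, 419 and 219 TPM. Replicate 1 of the B6 dam was again lowest in Sct and Pyy. Sct gave 25.5, 34.5 and 68.1 against 44.3, 62.0 and 30.5 TPM, Pyy 4.89, 10.1 and 17.9 against 10.5, 18.1 and 8.09 TPM, and Nts 35.6, 22.5 and 49.3 against 45.2, 41.9 and 28.1 TPM. For Nts that library lay between the other 2 of its group.

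Whether the dam effect differed between ages was tested directly in the same fit. By the moderated F test over the 3 ages, 7 of 9 genes passed, against 1.75% of all genes, with limma adjusted p-values of 0.0080 for Nts, 0.012 for Pyy, 0.013 for Sct, 0.028 for Gcg and 0.031 for each of Gip, Cck and Sst. Ghrl and Tac1 were at 0.059 and 0.058. The difference of the dam effect, day 14 minus day 24, was 2.23 (Tac1) to 5.52 (Nts) on the log2 scale and passed for 9 of 9 genes, against 33.5% of all genes called higher. Between days 14 and 42, and between days 24 and 42, 0 passed by limma (unadjusted p under 0.05 for 7 and 9 genes), with 0.113% of all genes called higher in the former and 0.0% in the latter. Of all 15066 genes tested, 2100 and 2873 had an unadjusted p under 0.05 in these comparisons.

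The scaled test was less clear. By the F test 0 of 9 passed (0.0% of all genes), with adjusted p-values of 0.051 for Pyy, Nts and Sct. Unadjusted p was under 0.05 for 9 of 9, and the number of all genes at that level is not given here. With limma-voom Nts and Sct passed the F test (adjusted p = 0.040 for both, 0.0478% of all genes). For day 14 minus day 24 alone, 6 of 9 passed scaled, against 0.159% of all genes, and 6 with limma-voom, against 0.123%. Without single libraries the F test called 3 to 9 genes on deposited values, 3 where replicate 1 of the B6 dam at day 14, replicate 1 or 3 of the IgA-null dam at day 14, replicate 1 of the B6 dam at day 24 or replicate 3 of the IgA-null dam at day 24 was left out, and 4 without replicate 2 of the B6 dam at day 14. On deposited values the share of all genes called was 0.0597% to 0.325% where 3 passed and 0.133% where 4 passed. Where 9 passed it was 3.3% or more, with 26.1% without replicate 1 of the IgA-null dam at day 24. Scaled, the F test called up to 5, reached without replicate 3 of the B6 dam at day 14 or replicate 1 of the B6 dam at day 42 (0.75% and 0.226% of all genes). It called 4 without replicate 1 of the IgA-null dam at day 24 or replicate 3 of the B6 dam at day 42 (0.896% and 0.133%). It called 2 without replicate 2 of the IgA-null dam at day 24 or at day 42 (0.0398% each). For day 14 minus day 24, the scaled share of all genes called higher ran from 0.0% to 0.823% with single libraries left out. The scaled count for day 14 minus day 24 was 0 without replicate 1 of the IgA-null dam at day 14 or of the B6 dam at day 24. It was 2 without replicate 1 of the B6 dam at day 14, replicate 2 or 3 of the IgA-null dam at day 14, or replicate 3 of the IgA-null dam at day 24, and 3 without replicate 2 of either dam at day 24.

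The steps between ages, within each dam, share their libraries with the comparisons above. With the B6 dam, 6 genes rose from day 14 to 24: Gip (2.68 ± 0.66), Cck (2.07 ± 0.52), Gcg (2.78 ± 0.54), Sct (1.52 ± 0.43), Ghrl (2.49 ± 0.60) and Tac1 (1.41 ± 0.37), with limma adjusted p-values from 0.0041 to 0.038. The share of all genes called higher in this step was 1.62%. Sst was at 1.56 (limma adjusted p = 0.073), and passed scaled, which made 7 of 9 against 7.54% of all genes. Pyy (0.40, limma adjusted p = 0.56) and Nts (-0.20, limma adjusted p = 0.81) were the 2 that did not pass in either, and their libraries overlapped, whereas the other 7 genes had libraries apart (7.21% of all genes). On deposited values the count was 3 without replicate 1 or 2 at day 14. Leaving out either library of day 24 leaves 1 in that group, so only effect sizes are given. Without replicate 1 at day 24 the log2 fold change was smaller, at 2.20 for Gip and 1.06 for Sct. Without replicate 2 it was 3.17 and 1.99. Without replicate 1 or 2 at day 14 the share of all genes called higher was 0.982% and 1.01%. Scaled, with at least 2 libraries left in each group, the count was 7 throughout. The share of all genes called higher then ran from 4.66% to 8.66%. Sums of tuft cell markers (3.58 to 5.52 and 16.1 to 24.7 TPM) and of goblet cell markers (515 to 783 and 1203 to 1438 TPM) were also higher at day 24 than at day 14. Of 8 stem and cycling markers 4 were lower (4 scaled), of 9 proximal markers 3 were lower and 1 higher (1 and 1 scaled), and of 10 distal markers 1 was lower and 1 higher (1 and 1 scaled). The part of these cells, and of segment, was not tested. From day 24 to 42 with the B6 dam 0 of 9 passed by limma (unadjusted p under 0.05 for 0 genes, also scaled and with limma-voom; 0.0133% of all genes were called higher), and log2 fold changes were between -0.16 and 0.66.

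**Figure D3:**
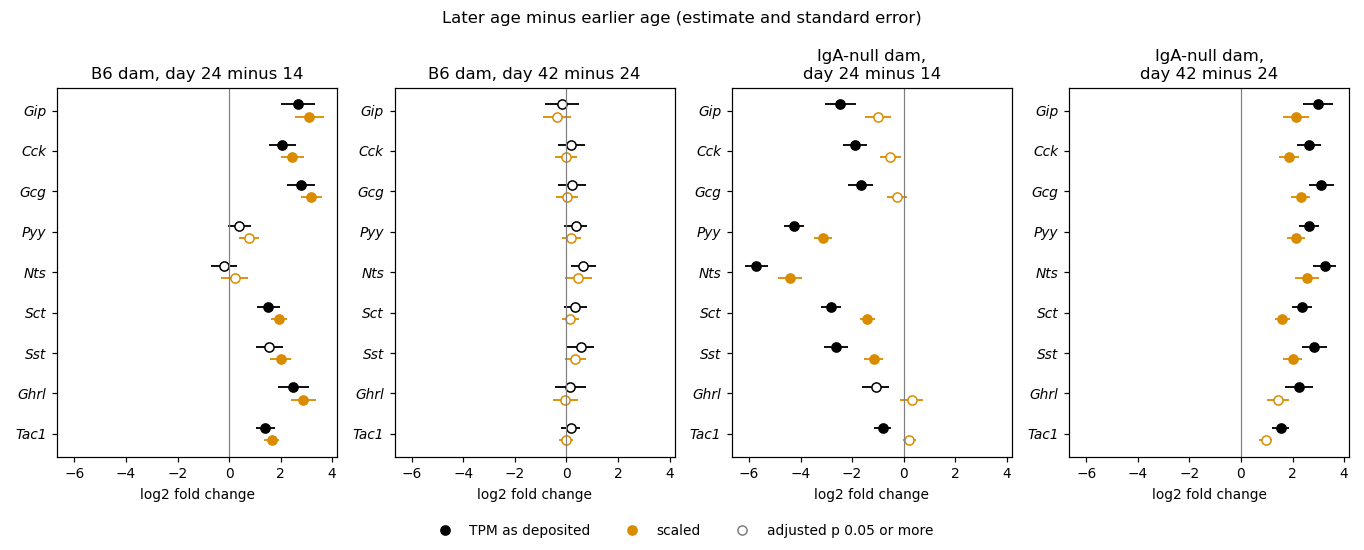
Log2 fold change between successive ages within each dam, with its standard error, on deposited TPM (black) and scaled (orange), filled where the adjusted p was under 0.05. With the B6 dam Pyy and Nts stay near 0 from day 14 to 24, and with the IgA-null dam they lie farthest to the left, at -4.25 and -5.72.

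With the IgA-null dam the step from day 14 to 24 was a fall. On deposited values 8 of 9 genes fell, but so did 82.9% of all genes, and a count so near that background says little about the hormones. Scaled, 4 genes fell, against 8.8% of all genes: Nts (-4.42), Pyy (-3.13), Sct (-1.41) and Sst (-1.16), with limma adjusted p-values of 6.5e-05, 8.1e-05, 0.0066 and 0.046. The same 4 passed with limma-voom (5.93% of all genes). Gip, Cck and Gcg were at -0.99, -0.51 and -0.26 scaled, and Ghrl and Tac1 at 0.31 and 0.22, none passing. In TPM, the mean of Nts was 62.0 times higher at day 14 than at day 24 (218 ± 61.5 against 3.52 ± 2.74, SD, n = 3) and that of Pyy 35.6 times (37.7 ± 6.64 against 1.06 ± 0.52). For the other 7 genes the ratio was 2.25 to 7.68. The libraries of the 2 ages did not overlap for 9 of 9 genes, against 79.9% of all genes. The summed neuronal and glial genes were at 3.69 to 6.54 TPM at day 14 and 0.55 to 1.28 TPM at day 24, and the part of such cells in the values of Nts was not tested. Of 8 stem and cycling markers 8 were lower (3 scaled), of 9 proximal markers 5 (1 scaled, with 1 higher) and of 10 distal markers 4 (1 scaled, with 2 higher), and their part was not tested either.

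From day 24 to 42 with the IgA-null dam, both groups carrying the same date, all 9 genes rose, by 1.54 ± 0.33 (Tac1) to 3.26 ± 0.45 (Nts), with limma adjusted p-values from 0.0023 to 0.0062. The share of all genes called higher was 48.5%. Scaled, 7 of 9 rose, against 1.57% of all genes, and Ghrl (1.43, limma adjusted p = 0.080) and Tac1 (0.95, limma adjusted p = 0.056) did not pass. The libraries of days 24 and 42 did not overlap for 9 of 9 genes, against 59.6% of all genes. Leaving out single libraries left 9 on deposited values. The share of all genes called higher then ran from 25.0% to 57.9%. Scaled, 1 gene was left without replicate 1 at day 42 (0.219% of all genes). Without replicate 2 at day 42 or replicate 1 at day 24 it was 2 (0.577% and 0.259%). Of granule genes 12 of 12 tested rose (9 scaled), and of tuft cell markers 7 of 7 (6 scaled), while 5 of 8 goblet cell markers rose as deposited and 0 scaled. Sums of tuft markers were 8.25 to 13.7 TPM at day 24 and 46.3 to 131.8 TPM at day 42, those of enterocyte markers 1902 to 4465 and 567 to 1131 TPM, and those of proximal markers 599.9 to 1647 and 148 to 289 TPM. Distal marker sums overlapped, at 229 to 476 and 419 to 482 TPM. The part of these cells, and of segment, in this step was not tested.

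The order of the 6 group means shows the same split. The IgA-null dam at day 42 had the highest mean for 6 genes (Gip, Cck, Gcg, Sst, Ghrl and Tac1), but its libraries overlapped those of the B6 dam at that age, next in order. For Pyy, Nts and Sct the IgA-null dam at day 14 was highest, and for Pyy and Nts, as deposited and scaled, its libraries were apart from the next group. Scaled, the order turned for Sct, whose means were 43.6 for the IgA-null dam at day 42 and 36.9 at day 14, with overlapping libraries. The lowest mean was that of the B6 dam at day 14 for Gip, Cck, Gcg, Ghrl and Tac1, and that of the IgA-null dam at day 24 for Pyy, Nts, Sct and Sst. Scaled, the B6 dam at day 14 was lowest for Sct too (9.03 against 13.3 for the IgA-null dam at day 24). The same held for Sst (50.2 against 70.2), so that only Pyy and Nts were lowest with the IgA-null dam at day 24. As deposited, libraries of the lowest group overlapped those of the next for Gip, Cck, Sct, Sst and Ghrl. Scaled, they overlapped for Pyy, Nts and Sst and were apart for the other genes.

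To see which hormones dominate irrespective of the total, each gene was taken as a share of the 9-gene sum within a library, a ratio that a common factor does not move. TPM being per length, Gip and Sst were the most abundant, with median shares of 32.8% and 26.6% at day 14, 43.5% and 27.4% at day 24 and 42.5% and 28.0% at day 42. Nts took 9.61% to 23.6% at day 14, in the 6 libraries of both dams, against 1.197% to 4.14% at day 24 and 2.57% to 11.2% at day 42. Only replicate 1 of the B6 dam at day 42, with 11.2%, reached into the range of day 14. Pyy went the same way, at 2.64% to 4.72%, 0.42% to 1.30% and 0.91% to 1.54% at the 3 ages, with no overlap of day 14 with the later days. Gcg went the other way, at 3.01% to 4.91%, then 6.84% to 9.84% and 6.42% to 12.8%, and Ghrl took 2.45% to 4.84% at day 14 and 4.88% to 10.1% at day 24, with 4.09% to 6.82% at day 42 overlapping both. These ranges describe all libraries of an age, with no test.

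**Figure D4:**
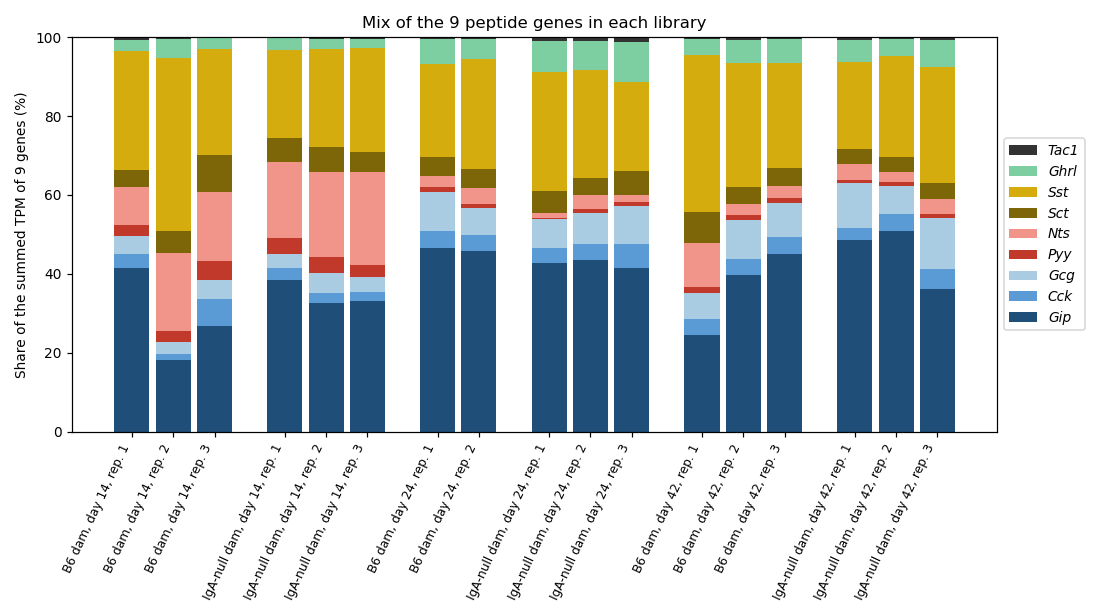
Share (%) of each gene in the summed TPM of the 9 genes, one bar per library. Nts and Pyy (light and dark red) are wide in the 6 libraries of day 14, at 9.61% to 23.6% and 2.64% to 4.72%, and narrow at days 24 and 42 apart from Nts in replicate 1 of the B6 dam at day 42.

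The mix was also compared between dams of the same age, in tests too small to pass a threshold of 0.05. Shares, and ratios of each gene to the mean of Chga and Chgb, were compared at each age by exact two-sided permutation tests, 54 in all. The smallest p was 0.1, the smallest that these group sizes allow, reached by 10 comparisons, and no Benjamini-Hochberg adjusted p was under 0.54, so that a difference in mix is neither shown nor excluded. At day 14 the share of Sst was 33.7% under the B6 dam and 24.41% under the IgA-null dam (exact permutation p = 0.1, adjusted 0.54). Nts was at 15.7% and 21.4% (exact permutation p = 0.2, adjusted 0.57). Relative to the chromogranins, the dams' difference at day 14 ran from -0.71 (Sst) to 0.23 (Nts) on the log2 scale. At day 24 it was below 0 for 8 genes, from -0.34 (Ghrl) to -1.70 (Pyy), and 0.02 for Tac1, with exact permutation p-values of 0.1 to 1.

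Across the 17 libraries Pyy and Nts went together, with no sharp line between them and the other genes. Pyy and Nts were correlated at r = 0.95 (0.92 scaled) on log2(TPM + 1). Nts and Tac1 were at 0.40 (0.07 scaled) and Nts and Gcg at 0.43 (0.21 scaled). Among the 21 pairs without Nts and Pyy, r was 0.79 or higher (0.73 scaled), the closest being Gcg and Tac1 at 0.97. Sct and Sst lay between, at 0.80 and 0.72 with Nts (0.61 and 0.52 scaled) and 0.89 and 0.81 with Pyy (0.77 and 0.66 scaled). With Gip, Cck and Ghrl, Pyy was at 0.73, 0.71 and 0.54 (0.59, 0.54 and 0.34 scaled). These libraries share depth, total and group, and the values describe them with no test.

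**Figure D5:**
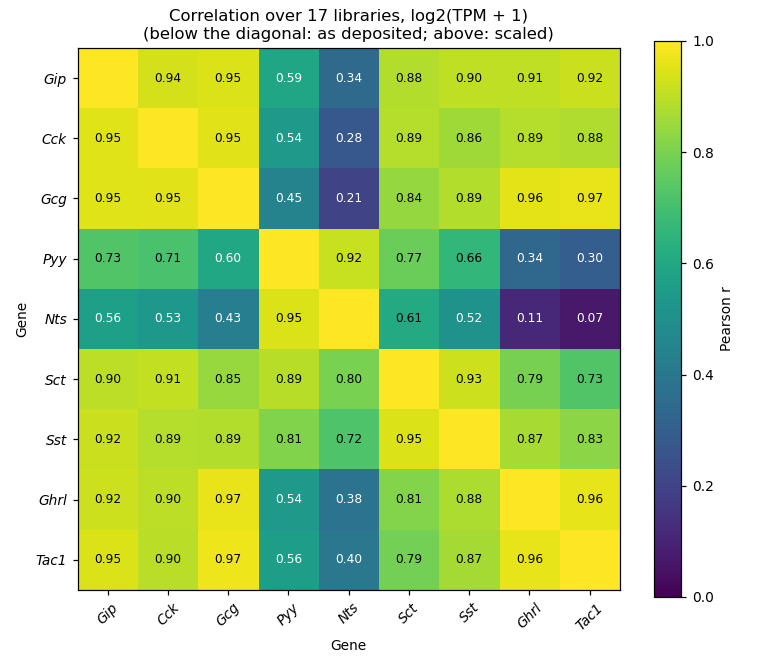
Pearson correlation of log2(TPM + 1) between the 9 genes over 17 libraries, as deposited below the diagonal and scaled above it. Pyy and Nts are at 0.95 with each other, and lower with Gcg, Ghrl and Tac1, while Gip, Cck, Gcg, Ghrl and Tac1 are at 0.90 to 0.97 among themselves as deposited.

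The genes outside the family with the most similar pattern were sought among 4861 tested genes with a mean of at least 5 TPM. For Gip they were Cpe, Chgb and Scg2 (r = 0.96 each over 17 libraries), for Cck Scg2, Cpe and Lgals2 (0.98, 0.95 and 0.94), and for Gcg Scg2, Cpe and Fut8 (0.98, 0.98 and 0.96). Ghrl was nearest to Scg2, Cpe and Myl7 (0.96, 0.94 and 0.94) and Tac1 to Cpe, Hepacam2 and Pdia5 (0.96, 0.95 and 0.94). These correlations were at least 0.86 scaled. Granule genes thus led for Gip, Cck, Gcg, Ghrl and Tac1.

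For the other 4 genes the nearest patterns on deposited values belonged to genes that are not particular to endocrine cells, and most weakened with scaling. Pyy was nearest to Gpr108, Fbxo9 and Pggt1b (0.95 each; 0.19, -0.01 and 0.40 scaled). Nts was nearest to Kpna2, Gpr108 and Mfsd14b (0.94, 0.93 and 0.92; 0.52, 0.12 and 0.09 scaled). Sct was nearest to Txn1, Guk1 and Sri (0.95, 0.93 and 0.93; 0.45, 0.57 and 0.63 scaled), and Sst to Plscr1, Pmm2 and Txn1 (0.94, 0.94 and 0.93; 0.70, 0.61 and 0.48 scaled). Unlike the granule genes above, none of these genes kept r above 0.70 after scaling. Genes were ranked on deposited values only. The nearest genes after scaling, and the r of these 4 hormones with granule genes, are not given. Scaled, Sct and Sst were at 0.88 and 0.90 with Gip, and Pyy and Nts at 0.59 and 0.34.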

How the data were processed

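RNA-seq libraries from sorted small-intestinal epithelium of 17 mice (SMART-seq v4 Ultra Low Input, Nextera XT) were read from the TPM table that the authors deposited, with 1 column per library and 53278 gene symbols. Reads were aligned to mm10 with Bowtie2 and counted with Subread, and DESeq2 is also named, per the submitters' processing notes; versions are not given in the sources used here. The deposited TPM values sum to 1000000 per library, so that a gene's value depends on all others. With gene lengths from GENCODE M21 for 49612 symbols, 93.6% of values were whole reads (within 0.01 reads or a relative 0.0001). The values of Sst were not whole, so no reads are given for it. Symbols, not strands or copies, define the genes, and the strandedness of the counting is not given in the sources used here.

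Groups were taken from the sample labels. Genes with at least 1 TPM in at least 2 libraries (15066) were fitted in 1 limma-trend model (limma 3.58.1, R 4.3.3) on log2(TPM + 1) with all 17 libraries, which share 1 estimate of spread, and p-values were adjusted by Benjamini and Hochberg over all of them with a threshold of 0.05. Fold changes on this scale understate those of low genes. Scaled values are TPM divided by median-of-ratios size factors (0.479 to 1.81), and limma-voom was run on recovered reads of 14659 genes. Shares were compared by exact two-sided permutation (Python 3.11.15). The limma-trend fit on unscaled values and the size factors were checked on simulated libraries with 1 shared profile apart from genes changed on purpose. The fit on scaled values, limma-voom and the permutation test were not checked in this way. Alternatives were a pseudocount of 0.1, a filter of 5 TPM, no filter, TPM without mitochondrial genes and Gm23935, a fit on only the groups compared, the replicate number as a block, and each library left out. Leaving out single libraries after scaling was added after seeing the data. Besides the 9 genes, all tested, the text names list genes that passed at an adjusted p of 0.05 in the dam comparison or had the smallest p, by a rule, and the 3 genes of most similar pattern per hormone. The lists (granule, serotonin, transcription factor, other peptide, sensor and receptor genes, and markers of other cells and segments) come from general knowledge. The 9 genes and the lists were chosen with earlier results of these data known. The labels give the groups the same replicate numbers, but same-numbered libraries did not deviate together: 10 of 40 pairs of same-numbered libraries had a correlation above 0.1.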

Additional observations from a re-analysis of the deposited data

Results flagged for a closer look

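For 7 of the 9 hormone genes, against 1.75% of all genes, the effect of the dam differed between ages by the moderated F test of limma. The difference, day 14 minus day 24 on the log2 scale, drew attention to them. It was 5.52 for Nts, 5.14 for Gip, 4.65 for Pyy, 4.45 for Gcg, 4.32 for Sct, 4.19 for Sst and 3.95 for Cck. For these genes the 3 libraries of the IgA-null dam were above all those of the B6 dam at day 14 and below them at day 24. Taken singly, the former held for 45.1% of all genes tested and the latter for 33.5%. The 4 groups of days 14 and 24 carry different dates, so that date and group cannot be told apart here. After scaling 0 of the 7 passed the F test (0.0% of all genes), with limma adjusted p-values of 0.051 to 0.12. As a pairwise test, 6 of them kept the difference between days 14 and 24, against 0.159% of all genes called higher. Cck was the exception (adjusted p = 0.069 by limma).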

How the results depend on the processing

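Values were compared across settings other than left-out libraries. Of those tallied, 407 were the same in direction and call, 72 lost a call, 17 gained one and 8 reversed. Another 5 were tallied as moved, and the cause of these changes was not tested. The counts of genes called, given here and below, changed in more cases than these 5, so the tally does not cover all of them. Without mitochondrial genes and Gm23935 the hormone genes called were 5 at day 14, 4 for the IgA-null dam from day 14 to 24, 3 in the F test over ages and 3 for day 14 minus day 24. Scaled and with limma-voom they were 4 and 4 for the IgA-null dam from day 14 to 24, and 0 and 2 in the F test, which called 3 with no filter. At day 24, 4 were called with a pseudocount of 0.1, where 418 of 15066 genes were called lower, and 7 with the filter of 5 TPM. For the other settings the counts over all genes are given below only as ranges. For the B6 dam from day 14 to 24, 1 was called with no filter and 0 in a fit of only those groups, which has fewer samples. Nts in that step reversed to 0.22 scaled and 0.25 with limma-voom. From day 14 to 24 with the IgA-null dam, Ghrl reversed to 0.31 scaled, 0.32 with limma-voom and 0.044 without mitochondrial genes and Gm23935, and Tac1 to 0.22, 0.29 and 0.018. Leaving Gip out of the sum moved the difference in Nts share (IgA-null minus B6 dam) from 5.68 to 11.1 percentage points at day 14 and from -1.21 to -2.48 at day 24.

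With single libraries left out and at least 2 left in each group, hormone genes called as deposited ranged from 5 to 9 at day 14. They ranged from 0 to 7 at day 24, 3 to 7 for the B6 dam from day 14 to 24 and 3 to 9 in the F test. The share of all genes called was 2.0% to 14% (higher) at day 14 and 0.06% to 26% in the F test. For the B6-dam step it was 0.98% to 2.1% (higher), and at day 24 4.0% (lower) where 7 passed. Scaled, hormone genes called ranged from 2 to 9 at day 14 and 0 to 5 in the F test. They ranged from 1 to 9 for the IgA-null dam from day 24 to 42, with 0.22% to 2.4% of all genes, and 0 to 9 for day 14 minus day 24. Scaled, the share of all genes called ranged from 0.412% to 4.56% (higher) at day 14, 0.0% to 0.896% in the F test and 0.0% to 0.823% (higher) for day 14 minus day 24. With any library left out, also where 1 was left in a group, log2 changes in the B6 dam from day 14 to 24 varied. They ranged from -0.17 to 0.97 for Pyy and from -0.69 to 0.24 for Nts.

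Over all genes the counts called were 1307 at day 14 (326 to 3035 under the alternatives, 324 to 2213 with each of the 17 libraries left out), 4 at day 24 (0 to 909, 0 to 4870), 0 at day 42 (0 to 5; 174 at an unadjusted p under 0.05 by limma), 1297 for the B6 dam from day 14 to 24 (69 to 2295, 486 to 4291) and 3 from day 24 to 42 (0 to 16, 1 to 19). For the IgA-null dam they were 12627 from day 14 to 24 (1862 to 15382, 11751 to 12709) and 7434 from day 24 to 42 (316 to 8261, 3882 to 8797). They were 264 in the F test (0 to 367, 9 to 6555) and 5076 for day 14 minus day 24 (21 to 4726, 168 to 8285). Scaling changed higher against lower calls from 1253 and 54 to 285 and 154 at day 14, from 130 and 12497 to 1223 and 1326 for the IgA-null dam from day 14 to 24, from 7304 and 130 to 237 and 178 from day 24 to 42, and from 244 and 1053 to 1136 and 919 for the B6 dam from day 14 to 24.

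With the replicate number as a block, a pairing that neither the labels nor the deviations bear out, the hormone genes called were 9 at day 14, 0 at days 24 and 42, 5 for the B6 dam and 8 for the IgA-null dam from day 14 to 24, 9 for the IgA-null dam from day 24 to 42, 5 in the F test and 9 for day 14 minus day 24. The share of all genes called with this block is not given here, so these counts have no background beside them. Depth limits Pyy and Tac1 most, with as few as 7 and 15 recovered reads.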
